A study of Rattus norvegicus with 15 samples.

Results

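Pericytes and vascular smooth muscle cells, together called mural cells, wrap the vessels of the brain, and meningeal and perivascular fibroblasts lie at its surface and along its larger vessels. A fixed list of 35 genes of these cells was followed in the inferior colliculus (IC) of audiogenic and control rats: 15 mural genes, Pdgfrb to Mcam, and 20 fibroblast and matrix genes, Col1a1 to Col4a2. The genes were taken by the gene symbol of the array's annotation, with the brightest probe set of each gene over all 15 arrays. All 15 mural genes and 19 of the 20 fibroblast and matrix genes were measured under 1 name, which makes 34 of 35 genes among the 14506 genes measured under 1 name, and Col4a2 was not analysed here.

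Pericytes share the basement membrane with endothelial cells, answer to endothelial PDGF through the receptor Pdgfrb, and take part in vessel stability, the blood-brain barrier and local blood flow. Smooth muscle cells of arterioles contract through actin, myosin and their regulators, such as Acta2, Tagln, Cnn1 and Myh11. Fibroblasts of the meninges secrete fibrillar collagens and small leucine-rich proteoglycans such as Dcn, Lum, Ogn, Bgn and Fmod, carry organic anion and nutrient transporters, and release retinoic acid and insulin-like growth factor signals.

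The Wistar audiogenic rat (WAR) is a strain bred from Wistar rats for seizures triggered by loud sound, and the IC is the midbrain auditory nucleus in which these seizures start. There were 4 groups of arrays, each array titled a separate biological replicate. WAR rats (WAR S, n = 5) and Wistar rats (Wistar S, n = 2) were sampled 60 min after the same sound. The other groups were naive WAR rats (WAR N, n = 4) and naive Wistar rats (Wistar N, n = 4). In the methods, stimulated WAR rats had seizures and stimulated Wistar rats had none. Strain and seizure therefore cannot be told apart after sound, and a strain effect after sound holds both. All animals were 12-week-old males, the tissue was the IC in every case, and no transgene or drug was used. The labels give Ribeirão Preto as the provider of the WAR rats and Charles River Laboratories as that of the Wistar rats, so strain and provider cannot be told apart, although the methods name a university facility for both strains.

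Each array gave log2 expression values after robust multi-array averaging (RMA), and precision is limited by the few arrays of each group. The median of an array lay between 7.01 and 7.27. Markers of neurons (10.94 to 11.48 as the mean log2 value over 10 genes) and of oligodendrocytes (11.18 to 11.71 over 7 genes) were bright in all 15 arrays. The stimulated and the naive arrays appear to have been normalized apart, although no source states it: any 2 of the 7 stimulated arrays shared 2675 to 3286 identical values over 29214 probe sets, any 2 naive arrays 2 to 13, and a stimulated and a naive array 0. Levels are therefore set side by side only within the stimulated or within the naive arrays. Shared values also limited the stimulated comparison, since 21 of the 34 genes had a value common to several stimulated arrays, against 58% of all genes.

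Wistar N replicate 1 stood apart from its group. Over all genes it correlated at 0.956 to 0.964 with the other Wistar N arrays and at 0.981 to 0.988 with the WAR N arrays, while the other Wistar N arrays correlated with each other at 0.990 to 0.992. It lay nearer to the WAR N mean than to the mean of the other Wistar N arrays for 26 of the 34 genes, 14 of them among the 15 mural genes. The same count over all genes was not made, so whether the listed genes stand out in this was not tested. Naive results of the 34 genes and naive counts of each list are therefore given with all 4 Wistar N arrays and again with that array left out. That array was singled out from these same values, so results without it are not independent of that choice. Its removal from the spread that the stimulated comparison shares with all groups was also chosen after seeing the data. Why it stood apart was not tested.

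The promoters of Rgs5, Ogn and Igfbp2 are shown because these genes had the largest naive strain differences among the 21 of 35 genes that the RefSeq table of promoters (GRCr8) held. Each runs 5′ to 3′ over 300 bases, with 250 bases before the annotated gene start in lower case and the 50 bases from the start in capitals. The Rgs5 window is chr13:84380827-84381126 on the plus strand, the Ogn window chr17:15258946-15259245 on the minus strand and the Igfbp2 window chr9:81864561-81864860 on the plus strand.
Rgs5: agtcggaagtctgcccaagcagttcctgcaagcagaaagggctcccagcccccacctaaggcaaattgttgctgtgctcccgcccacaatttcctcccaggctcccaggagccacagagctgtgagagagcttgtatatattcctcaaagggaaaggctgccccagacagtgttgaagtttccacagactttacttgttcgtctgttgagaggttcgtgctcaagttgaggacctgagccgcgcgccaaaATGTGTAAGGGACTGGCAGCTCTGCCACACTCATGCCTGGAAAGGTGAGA
Ogn: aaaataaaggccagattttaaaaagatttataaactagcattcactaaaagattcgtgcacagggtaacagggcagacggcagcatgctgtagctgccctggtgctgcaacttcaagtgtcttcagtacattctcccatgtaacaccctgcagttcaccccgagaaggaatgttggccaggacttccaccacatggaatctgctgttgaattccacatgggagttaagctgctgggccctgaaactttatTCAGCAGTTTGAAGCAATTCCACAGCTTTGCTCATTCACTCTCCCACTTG
Igfbp2: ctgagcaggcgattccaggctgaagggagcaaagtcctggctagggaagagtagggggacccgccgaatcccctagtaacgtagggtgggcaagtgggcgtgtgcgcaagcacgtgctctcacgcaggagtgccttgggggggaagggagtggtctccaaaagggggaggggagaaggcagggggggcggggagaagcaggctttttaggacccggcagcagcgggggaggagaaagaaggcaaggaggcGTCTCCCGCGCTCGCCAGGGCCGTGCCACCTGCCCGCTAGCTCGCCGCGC
The CArG box, the motif bound by serum response factor in smooth muscle genes, was searched on both strands and occurred in 1.64% of all 33469 promoters of this length and in 1 of the 22 promoters of the listed genes, that of Igf2. The motif TATAAA, also on both strands, occurred in 14.2% of all promoters and in those of Col1a2 and Ogn. A match describes letters only, and the other motifs of these windows were not searched.

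The question put to the arrays was how mural and fibroblast transcripts of the IC differed between WAR and Wistar rats after sound and without it. In naive animals Rgs5, a regulator of G protein signalling and a pericyte marker, was 3.27-fold higher in WAR. The contractile gene Cnn1 was 1.19-fold higher. Dcn and Ogn, proteoglycans of fibroblast matrix, were 2.73-fold and 2.28-fold higher, while Igfbp2, Col1a2 and Pcolce were lower in WAR. These were 2 of 15 mural genes higher and 0 lower, and 2 of 19 fibroblast and matrix genes higher and 3 lower. Of all genes 11.6% passed higher and 9.38% lower, so naive calls were about as frequent as among all genes. Among the called genes, the naive arrays of the strains overlapped for Cnn1, Dcn and Igfbp2. Dcn also lay lower on every WAR S array than on the Wistar S arrays, without passing the test. After sound, the only one of the 34 genes to pass the test was Slc47a1, an organic cation exporter. It was lower in WAR, as were 0.2% of all genes. In whole tissue, fewer cells of a type and less RNA per cell cannot be told apart.

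Among the mural genes, 0 of 15 passed an adjusted p of 0.05 in WAR S over Wistar S (limma over all genes, Benjamini-Hochberg), against 0.214% of all genes called higher and 0.2% called lower. Before adjustment, 4 mural genes had a p under 0.05, all higher in WAR S, against 6.85% of all genes in either direction. The median log2 fold change of the 15 genes was 0.11, with 14 above 0, against a median of 0.010 over all genes. In 6 of 15 the WAR S arrays all lay above both Wistar S arrays, against 12.4% of all genes, and in 0 of 15 all below, against 8.22%. In naive animals 2 of 15 mural genes passed higher in WAR N, against 11.6% of all genes, and 0 passed lower, against 9.38%, with a median of 0.19 against 0.023 over all genes. The arrays did not overlap in 1 of 15, higher, against 7.93% of all genes, and in 0 of 15 lower, against 5.51%.

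With Wistar N replicate 1 left out, 7 of 15 mural genes passed higher in WAR N (Rgs5, Tagln, Vtn, Cnn1, Anpep, Acta2 and Abcc9), against 22.6% of all genes, and 0 passed lower, against 18.5%. The median was then 0.24 against 0.044 over all genes. Arrays did not overlap in 5 of 15, all higher, against 21.7% of all genes higher and 16.6% lower. The difference between the strain effects after sound and without it passed in 0 mural genes, against 0.103% of all genes, and in 1, Rgs5, without that array, against 20.4% of all genes. Beside them, 4 of 20 endothelial markers passed higher in WAR S, against 0.214% of all genes, and 11 of 20 in WAR N, against 11.6%. Without that array 10 and 17 of these markers passed higher, against 1.1% and 22.6% of all genes. Abcb1a, among the 4 that passed after sound, was reported higher in WAR by the study, so its direction is not independent evidence. The part of the endothelial markers in the mural differences was not tested.

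**Figure D1:**
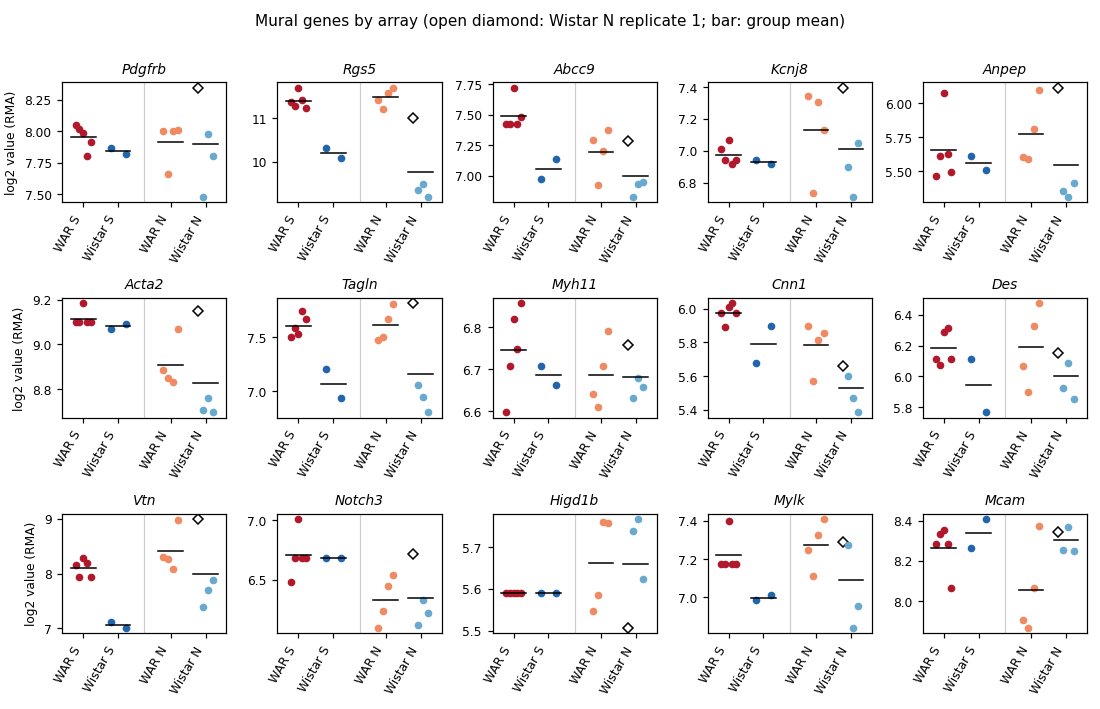
Log2 values of the 15 mural genes on each array, a panel a gene, with WAR S, Wistar S, WAR N and Wistar N from left to right, the group mean as a bar and Wistar N replicate 1 as an open diamond. A line divides stimulated from naive arrays, whose levels are not comparable, the axes differ between panels, and Rgs5 lies between 11.21 and 11.69 on the WAR N arrays, above all 4 Wistar N arrays.

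Rgs5 (probe set 10765437), whose product speeds the shutdown of G protein signals in pericytes, read 11.41, 11.21, 11.58 and 11.69 on the WAR N arrays, against 11.00, 9.36, 9.49 and 9.20 on the Wistar N arrays. All WAR N arrays were higher, and Wistar N replicate 1 at 11.00 was the nearest to them. The log2 fold change was 1.71 (SE 0.29, limma adjusted p = 0.00205), or 2.12 (SE 0.13, limma adjusted p = 4.96e-08) without Wistar N replicate 1. By an exact permutation test over the arrays, 2-sided, p was 0.0286 with all arrays, the smallest that 4 against 4 arrays allow. For the other genes that passed limma in naive rats, the permutation p was 0.0286 for Ogn, Col1a2 and Pcolce. It was 0.0857 for Cnn1 and Igfbp2 and 0.114 for Dcn, all above 0.05.

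After sound Rgs5 read 11.38, 11.28, 11.69, 11.42 and 11.23 on the WAR S arrays, against 10.32 and 10.08 on the Wistar S arrays, again with no overlap. The log2 fold change of 1.20 (SE 0.35, limma adjusted p = 0.234) did not pass, although the arrays were as far apart as the exact permutation test can show with 5 against 2 arrays (p = 0.0476). Leaving Wistar N replicate 1 out of the shared spread gave the same fold change with an SE of 0.14 and an adjusted p of 0.000441 (limma). The strain effect after sound minus that in naive rats was -0.51 (SE 0.45, limma adjusted p = 0.64), and -0.92 (SE 0.19, limma adjusted p = 0.0034) without that array. Rgs5 stands in the study's published diagram of WAR genes, which was drawn from stimulated WAR and Wistar arrays, so its direction after sound is not independent evidence. The methods count more stimulated rats than there are stimulated arrays here, and whether these arrays are a part of those was not settled.

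Vtn, the adhesive glycoprotein vitronectin that brain pericytes secrete, read 8.16, 7.93, 8.29, 8.19 and 7.93 on the WAR S arrays, against 7.11 and 7.00 on the Wistar S arrays. The groups did not overlap, and the log2 fold change of 1.04 (SE 0.33, limma adjusted p = 0.301) missed the threshold. In naive rats Vtn read 8.31, 8.26, 8.09 and 8.99 on the WAR N arrays, against 9.00, 7.38, 7.69 and 7.88 on the Wistar N arrays. Wistar N replicate 1 held the highest of these 8 values, and the other 3 Wistar N arrays lay below every WAR N array. The naive log2 fold change was 0.42 (SE 0.28, limma adjusted p = 0.299), and 0.76 (SE 0.18, limma adjusted p = 0.00345) without that array. The stimulated adjusted p was 0.0155 (limma) with that array out of the shared spread.

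Abcc9 and Kcnj8 encode the regulatory and pore subunits of the ATP-sensitive potassium channel of pericytes. Abcc9 read 7.42, 7.42, 7.72, 7.42 and 7.48 on the WAR S arrays, against 6.97 and 7.14 on the Wistar S arrays, with every WAR S array higher and a log2 fold change of 0.44 (SE 0.14, limma adjusted p = 0.294). The naive groups overlapped, at 6.93 to 7.37 on WAR N and 6.83 to 7.29 on Wistar N, with a log2 fold change of 0.20 (SE 0.11, limma adjusted p = 0.243) and 0.29 (SE 0.10, limma adjusted p = 0.0346) without Wistar N replicate 1. The other Abcc9 probe set gave 0.47 after sound and 0.42 in naive rats, with limma adjusted p of 0.656 and 0.0973. Its partner Kcnj8 spanned 6.92 to 7.06 on WAR S and 6.92 to 6.94 on Wistar S, a log2 fold change of 0.045 with a 95% interval of -0.31 to 0.40, and its naive difference was 0.12 (SE 0.14, limma adjusted p = 0.599), or 0.24 without that array.

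Neither receptor passed the test. Pdgfrb, the PDGF receptor through which pericytes are recruited, spanned 7.80 to 8.05 on WAR S and 7.82 to 7.87 on Wistar S, with a 95% interval of the log2 fold change of -0.25 to 0.47, and in naive rats 7.66 to 8.01 on WAR N and 7.48 to 8.35 on Wistar N, with an interval of -0.29 to 0.32. Notch3, the receptor by which endothelial ligands direct smooth muscle, gave 0.026 after sound (interval -0.32 to 0.37) and -0.016 in naive rats (interval -0.31 to 0.28), and its 7 stimulated arrays held 3 distinct values. The arrays of the strains overlapped for both genes, and these intervals still allow differences of their width. Without Wistar N replicate 1 the naive log2 fold changes were 0.16 for Pdgfrb and 0.11 for Notch3, neither past the test.

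Anpep, the aminopeptidase CD13 of the pericyte surface, read 5.61, 5.59, 5.81 and 6.10 on WAR N arrays, against 6.11, 5.36, 5.32 and 5.42 on Wistar N arrays. Wistar N replicate 1 was the highest of the 8 and the other 3 Wistar N arrays were the lowest, which put the log2 fold change at 0.23 (SE 0.18, limma adjusted p = 0.4) with that array and 0.41 (SE 0.14, limma adjusted p = 0.0298) without it. After sound it was 0.092 (SE 0.21, limma adjusted p = 1), with WAR S replicate 3 apart at 6.08. Mcam, the adhesion molecule CD146, was the 1 mural gene with a negative stimulated fold change, -0.074 (SE 0.12, limma adjusted p = 1), and in naive rats it was -0.25 (SE 0.10, limma adjusted p = 0.0934), or -0.24 without Wistar N replicate 1. Higd1b, a pericyte marker of unsettled role in the brain, had the value 5.59 on all 7 stimulated arrays, which carries no comparison, and a naive difference of 0.0038 (SE 0.07, limma adjusted p = 0.975), or -0.047 without that array.

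Among the contractile genes, Tagln, which encodes the actin-binding protein transgelin, read 7.50, 7.59, 7.53, 7.75 and 7.67 on WAR S arrays, against 7.21 and 6.94 on Wistar S arrays. The groups did not overlap, with a log2 fold change of 0.53 (SE 0.20, limma adjusted p = 0.494), and 0.53 (SE 0.11, limma adjusted p = 0.0233) with Wistar N replicate 1 out of the shared spread. On the naive arrays Tagln read 7.47, 7.51, 7.67 and 7.81 in WAR N, against 7.81, 7.06, 6.95 and 6.81 in Wistar N. The value of Wistar N replicate 1 was level with the highest WAR N array and the rest of its group below all of them, with 0.46 (SE 0.17, limma adjusted p = 0.0705) for all arrays and 0.68 (SE 0.10, limma adjusted p = 9.88e-05) without it.

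Cnn1, the actin-bound calponin that restrains smooth muscle myosin, read 5.90, 5.57, 5.82 and 5.86 on WAR N arrays, against 5.66, 5.60, 5.47 and 5.38 on Wistar N arrays. The groups overlapped, because WAR N replicate 2 lay below Wistar N replicates 1 and 2. Its log2 fold change of 0.26 (SE 0.086, limma adjusted p = 0.048) passed narrowly, and 0.30 (SE 0.087, limma adjusted p = 0.0127) passed without Wistar N replicate 1. It passed in 5 of 17 alternatives, and it lay among the dimmest 25% of genes. After sound it was 0.19 (SE 0.10, limma adjusted p = 0.882).

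Acta2, smooth muscle actin, read 8.88, 8.85, 8.83 and 9.07 on WAR N arrays, against 9.15, 8.71, 8.76 and 8.70 on Wistar N arrays, with Wistar N replicate 1 the highest of all. With all arrays the log2 fold change was 0.079 (SE 0.092, limma adjusted p = 0.583), and it was 0.19 (SE 0.064, limma adjusted p = 0.0316) without that array. After sound the WAR S arrays read 9.10, 9.10, 9.18, 9.10 and 9.10, against 9.07 and 9.09 on the Wistar S arrays, a separation of a few hundredths with a log2 fold change of 0.034 (SE 0.11, limma adjusted p = 1). Mylk, the kinase that switches on smooth muscle myosin, was 0.22 (SE 0.12, limma adjusted p = 0.905) after sound, where 4 of 5 WAR S arrays shared the value 7.17, and 0.19 (SE 0.10, limma adjusted p = 0.224) in naive rats, or 0.25 without Wistar N replicate 1. The intermediate filament gene Des was 0.24 (SE 0.15, limma adjusted p = 1) after sound and 0.19 (SE 0.12, limma adjusted p = 0.304) in naive rats, or 0.24 without that array. The myosin heavy chain Myh11 was 0.06 (SE 0.08, limma adjusted p = 1) after sound and 0.0064 (SE 0.067, limma adjusted p = 0.956) in naive rats, or 0.032 without it.

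**Figure D2:**
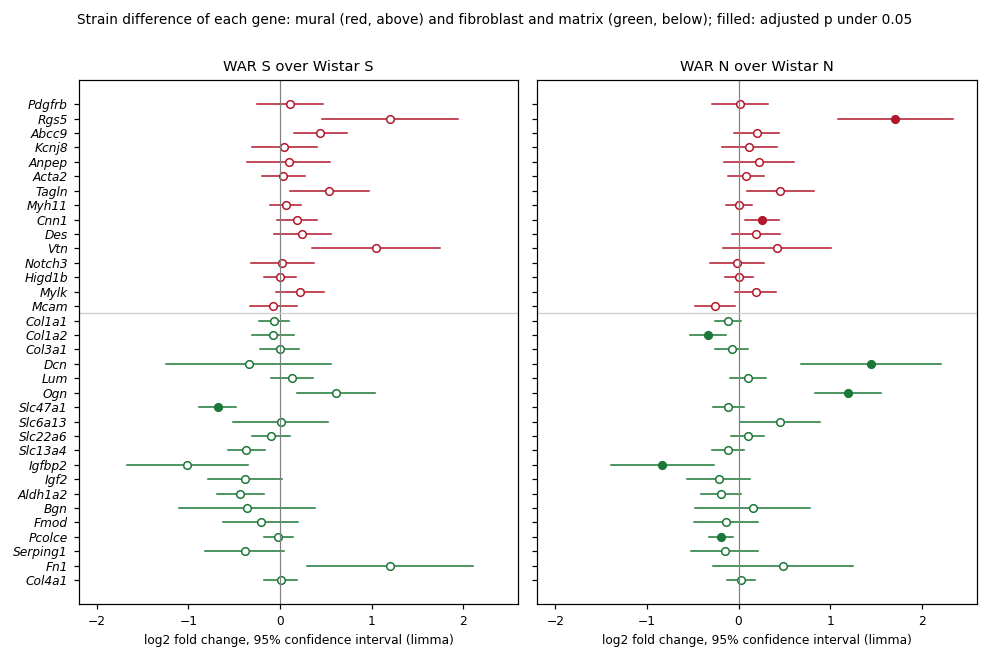
Log2 fold change of each gene with its 95% confidence interval (limma, all 15 arrays), for WAR S over Wistar S in the left panel and WAR N over Wistar N in the right panel, with mural genes in red above the line and fibroblast and matrix genes in green below it. Filled points have an adjusted p under 0.05: Slc47a1 after sound, and Rgs5, Cnn1, Dcn, Ogn, Col1a2, Igfbp2 and Pcolce in naive rats.

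Fibroblast and matrix genes passed the test in both directions. In WAR S over Wistar S, 0 of 19 passed higher and 1, Slc47a1, passed lower, against 0.214% and 0.2% of all genes. Before adjustment 2 had a p under 0.05 higher and 4 lower, against 6.85% of all genes in either direction. Their median log2 fold change was -0.098, with 5 of 19 above 0. Arrays did not overlap in 2 genes with WAR S higher, against 12.4% of all genes, and in 6 with WAR S lower, against 8.22%. In naive rats 2 of 19 passed higher (Dcn and Ogn), against 11.6% of all genes, and 3 lower (Igfbp2, Col1a2 and Pcolce), against 9.38%, with a median of -0.11. The naive arrays did not overlap in 1 gene higher, against 7.93% of all genes, and in 3 lower, against 5.51%. Without Wistar N replicate 1, 3 passed higher (Slc6a13 joined Dcn and Ogn), against 22.6% of all genes, the same 3 passed lower, against 18.5%, and the median became 0.011. Arrays then did not overlap in 6 genes higher, against 21.7% of all genes, and in 4 lower, against 16.6%. The difference between the strain effects passed in 0 of 19 with all arrays, with 3 lower before adjustment against 15% of all genes in either direction, and in 4 of 19 without that array (Dcn, Slc6a13, Slc47a1 and Bgn), close to the 20.4% of all genes that then passed.

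**Figure D3:**
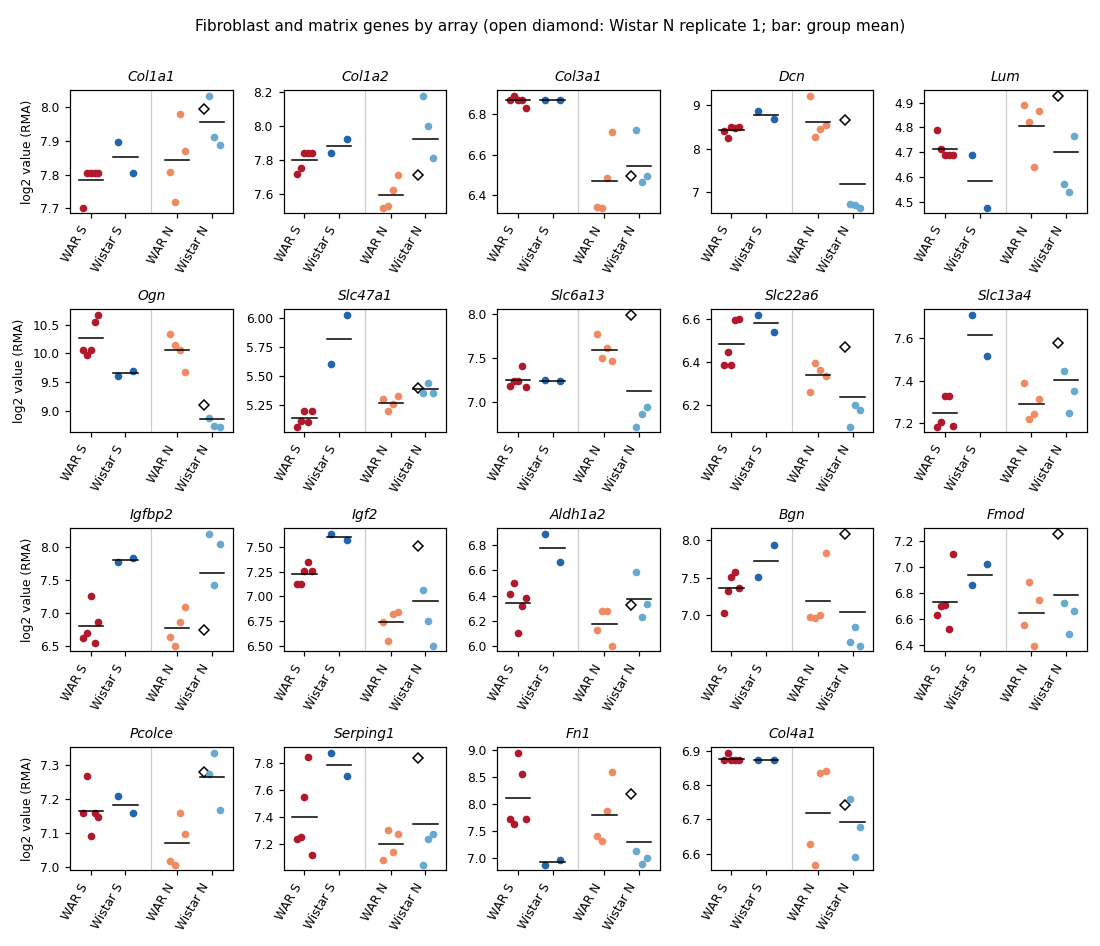
Log2 values of the 19 measured fibroblast and matrix genes on each array, a panel a gene, with WAR S, Wistar S, WAR N and Wistar N from left to right, the group mean as a bar and Wistar N replicate 1 as an open diamond. A line divides stimulated from naive arrays, whose levels are not comparable, the axes differ between panels, and for Dcn the open diamond at 8.65 lies among the WAR N arrays while the other Wistar N arrays lie between 6.64 and 6.72.

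Dcn (probe set 10895075), decorin, a proteoglycan that binds collagen fibrils and growth factors, read 9.23, 8.27, 8.45 and 8.55 on WAR N arrays, against 8.65, 6.72, 6.70 and 6.64 on Wistar N arrays. Replicate 1 of Wistar N lay within the WAR N range and the other 3 Wistar N arrays lay far below it. The log2 fold change was 1.45 (SE 0.36, limma adjusted p = 0.0116), and 1.94 (SE 0.16, limma adjusted p = 7.75e-07) without that array. After sound Dcn read 8.41, 8.26, 8.50, 8.49 and 8.50 on WAR S arrays, against 8.87 and 8.68 on Wistar S arrays, now with every WAR S array lower and a log2 fold change of -0.34 (SE 0.42, limma adjusted p = 1). The strain effect after sound minus that in naive rats was -1.79 (SE 0.55, limma adjusted p = 0.168), and -2.28 (SE 0.24, limma adjusted p = 3.54e-05) without Wistar N replicate 1, where it passed.

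Ogn (probe set 10797648), osteoglycin, a small leucine-rich proteoglycan whose promoter is among those shown, read 10.34, 10.14, 10.05 and 9.68 on WAR N arrays, against 9.11, 8.87, 8.74 and 8.72 on Wistar N arrays. Here Wistar N replicate 1 at 9.11 stayed below every WAR N array. It had a log2 fold change of 1.19 (SE 0.17, limma adjusted p = 0.000796), and 1.27 (SE 0.17, limma adjusted p = 4.55e-05) without that array. After sound it read 10.06, 9.97, 10.06, 10.54 and 10.67 on WAR S arrays, against 9.61 and 9.69 on Wistar S arrays, every WAR S array higher, with a log2 fold change of 0.61 (SE 0.20, limma adjusted p = 0.343). The difference between these strain effects was -0.58 (SE 0.26, limma adjusted p = 0.311), and -0.66 (SE 0.25, limma adjusted p = 0.082) without Wistar N replicate 1.

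The other small leucine-rich proteoglycans did not pass with all arrays. Bgn, biglycan, read 6.97, 6.96, 6.99 and 7.84 on WAR N arrays, against 8.09, 6.64, 6.84 and 6.59 on Wistar N arrays, with Wistar N replicate 1 highest and the rest of that group lowest. Its naive log2 fold change was 0.15 (SE 0.29, limma adjusted p = 0.753), and 0.50 (SE 0.20, limma adjusted p = 0.0525) without that array, while after sound it was -0.36 (SE 0.35, limma adjusted p = 1). Lum, lumican, was 0.13 (SE 0.11, limma adjusted p = 1) after sound and 0.10 (SE 0.09, limma adjusted p = 0.445) in naive rats, or 0.18 without that array, and lay among the dimmest 25% of genes. Fmod, fibromodulin, was -0.21 (SE 0.19, limma adjusted p = 1) after sound and -0.14 (SE 0.16, limma adjusted p = 0.589) in naive rats, or 0.022 without it.

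Of the transporters, Slc47a1 (probe set 10743387), the proton-coupled exporter MATE1, read 5.06, 5.11, 5.20, 5.10 and 5.19 on WAR S arrays, against 5.60 and 6.03 on Wistar S arrays. All WAR S arrays were lower, and the 2 Wistar S arrays differed from each other by more than the whole WAR S range. The log2 fold change was -0.68 (SE 0.094, limma adjusted p = 0.00554), and leaving out Wistar S replicate 2 gave -0.47 with an adjusted p of 0.188 (limma). The naive arrays read 5.30, 5.20, 5.25 and 5.33 in WAR N, against 5.39, 5.35, 5.44 and 5.35 in Wistar N, also without overlap but closer, with -0.11 (SE 0.08, limma adjusted p = 0.341), and the same difference without Wistar N replicate 1. The difference between the strain effects was -0.57 (SE 0.12, limma adjusted p = 0.0854), and -0.57 (SE 0.13, limma adjusted p = 0.00569) without that array. The gene lay among the dimmest 25%, and it was not tested where those genes were left out.

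Slc6a13, the GABA and taurine transporter GAT2, read 7.77, 7.51, 7.62 and 7.46 on WAR N arrays, against 7.99, 6.72, 6.87 and 6.94 on Wistar N arrays. Replicate 1 of Wistar N was above every WAR N array and the other 3 Wistar N arrays below all of them, so the log2 fold change was 0.46 (SE 0.20, limma adjusted p = 0.127) with it and 0.74 (SE 0.085, limma adjusted p = 1.07e-05) without it. After sound the WAR S arrays spanned 7.18 to 7.42 and the Wistar S arrays 7.24 to 7.25, a log2 fold change of 0.0055 (SE 0.24, limma adjusted p = 1), and the strain effect after sound minus the naive effect was -0.45 (SE 0.32, limma adjusted p = 0.527), or -0.74 (SE 0.13, limma adjusted p = 0.00107) without that array. Slc13a4, a sodium-coupled sulfate transporter, read 7.18, 7.20, 7.33, 7.33 and 7.18 on WAR S arrays, against 7.71 and 7.52 on Wistar S arrays. Every WAR S array was lower, with a log2 fold change of -0.37 (SE 0.094, limma adjusted p = 0.142) and an adjusted p of 0.0358 (limma) with Wistar N replicate 1 out of the shared spread. Its naive difference was -0.11 (SE 0.08, limma adjusted p = 0.333), or -0.056 without that array. Slc22a6, the organic anion transporter OAT1, was -0.098 (SE 0.099, limma adjusted p = 1) after sound and 0.10 (SE 0.083, limma adjusted p = 0.419) in naive rats, or 0.18 without it.

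Igfbp2 (probe set 10924223), a secreted binding protein for insulin-like growth factors that astrocytes also make, read 6.63, 6.50, 6.87 and 7.09 on WAR N arrays, against 6.74, 8.21, 7.42 and 8.04 on Wistar N arrays. Wistar N replicate 1 lay within the WAR N range and the other 3 Wistar N arrays above it. This gave a log2 fold change of -0.83 (SE 0.26, limma adjusted p = 0.0374), and -1.12 (SE 0.20, limma adjusted p = 0.000413) without that array. After sound Igfbp2 read 6.62, 6.70, 7.26, 6.55 and 6.86 on WAR S arrays, against 7.78 and 7.84 on Wistar S arrays, every WAR S array lower, with a log2 fold change of -1.01 (SE 0.31, limma adjusted p = 0.288), and an adjusted p of 0.0283 (limma) with that array out of the shared spread. Beside it, 5 of 13 astrocyte markers passed lower in WAR N, against 9.38% of all genes, and 0 after sound, against 0.2%. In WAR N, 4 of the 13 had a log2 fold change above 0. Without that array 6 passed lower and 1 higher in WAR N, against 18.5% and 22.6% of all genes. After sound 1 then passed lower, against 0.703%, and the part of these markers was not tested. Like Rgs5, this gene stands in the study's published diagram of WAR genes, so its direction after sound is not independent evidence.

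Igf2, the growth factor itself, read 7.13, 7.13, 7.25, 7.35 and 7.25 on WAR S arrays, against 7.64 and 7.57 on Wistar S arrays. The groups did not overlap, but the log2 fold change of -0.38 (SE 0.19, limma adjusted p = 0.791) did not pass, and in naive rats it was -0.22 (SE 0.16, limma adjusted p = 0.36), or -0.034 without Wistar N replicate 1. Aldh1a2, the enzyme that makes retinoic acid in the meninges, read 6.41, 6.50, 6.10, 6.32 and 6.38 on WAR S arrays, against 6.89 and 6.67 on Wistar S arrays. All WAR S arrays were lower, at -0.43 (SE 0.12, limma adjusted p = 0.208), and the naive difference was -0.20 (SE 0.10, limma adjusted p = 0.193), or -0.21 without that array.

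Of the fibrillar collagen genes only Col1a2 passed, in naive rats. Col1a2 (probe set 10853559), a chain of type I collagen, read 7.52, 7.53, 7.62 and 7.71 on WAR N arrays, against 7.71, 8.18, 8.00 and 7.81 on Wistar N arrays. The groups touched at 7.71 without overlapping, and the log2 fold change was -0.33 (SE 0.09, limma adjusted p = 0.019), or -0.40 (SE 0.083, limma adjusted p = 0.00139) without Wistar N replicate 1. Its partner chain Col1a1 was -0.11 (SE 0.066, limma adjusted p = 0.241) in naive rats, or -0.10 without that array, and Col3a1, the chain of type III collagen, was -0.074 (SE 0.083, limma adjusted p = 0.564), or -0.09 without it. After sound the log2 fold changes were -0.082 for Col1a2, -0.067 for Col1a1 and -0.0048 for Col3a1, each with an adjusted p of 1 (limma), and most stimulated values of these genes were shared between arrays.

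Pcolce (probe set 10760971), the enhancer of the protease that trims procollagen, read 7.02, 7.01, 7.16 and 7.10 on WAR N arrays, against 7.28, 7.27, 7.33 and 7.17 on Wistar N arrays. Every WAR N array was lower, with a log2 fold change of -0.19 (SE 0.061, limma adjusted p = 0.038), or -0.19 (SE 0.065, limma adjusted p = 0.0323) without Wistar N replicate 1, and -0.019 (SE 0.072, limma adjusted p = 1) after sound. Serping1, the C1 inhibitor of the complement and kinin systems, was -0.39 (SE 0.20, limma adjusted p = 0.842) after sound and -0.15 (SE 0.17, limma adjusted p = 0.563) in naive rats, or 0.011 without that array. Col4a1, the basement membrane chain of type IV collagen, had 2 distinct values among 7 stimulated arrays, and its naive difference was 0.026 (SE 0.069, limma adjusted p = 0.829), or 0.042 without it.

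Fn1, fibronectin, which joins cells to matrix and is made by vessel cells as well as fibroblasts, read 7.73, 7.64, 8.96, 8.56 and 7.73 on WAR S arrays, against 6.88 and 6.97 on Wistar S arrays. All WAR S arrays were higher, and replicates 3 and 4 were the highest. The log2 fold change of 1.20 (SE 0.42, limma adjusted p = 0.429) became 0.78, with an adjusted p of 0.668 (limma), over the arrays of label set 1, from which those 2 arrays are absent. In naive rats Fn1 read 7.41, 7.32, 7.88 and 8.59 on WAR N arrays, against 8.20, 7.14, 6.90 and 7.01 on Wistar N arrays, at 0.49 (SE 0.36, limma adjusted p = 0.36), or 0.78 (SE 0.32, limma adjusted p = 0.0683) without Wistar N replicate 1.

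Label sets are the 2 runs of numbers in the array descriptions, which no source names as batches. Set 1 holds WAR S replicates 1, 2 and 5, both Wistar S arrays, WAR N replicates 1 and 2 and Wistar N replicates 1 and 4. Within set 1, 0 mural and 0 fibroblast and matrix genes passed in naive rats, against 0.738% of all genes higher and 0.758% lower, and Wistar N replicate 1 is there 1 of only 2 Wistar N arrays. Within set 2, with 2 arrays a group, 6 of 15 mural genes passed, all higher, against 12.4% of all genes higher, and 0 lower, against 13.6%. Of the 19 fibroblast and matrix genes, 4 passed higher (Dcn, Ogn, Slc6a13 and Fn1) and 1 lower (Col1a2) in set 2. In the stimulated comparison set 2 holds no Wistar array.

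Other genes of the same cells were read from lists beside these. Their naive counts stand against 11.6% of all genes higher and 9.38% lower with all arrays, and against 22.6% higher and 18.5% lower without Wistar N replicate 1. Their counts after sound stand against 0.214% higher and 0.2% lower, and against 1.1% and 0.703% with that array out of the shared spread. Of 14 further pericyte genes, 0 passed after sound and 1 passed in naive rats, Enpep, an aminopeptidase of the pericyte surface, at 0.40 (adjusted p = 0.0166), while 4 passed higher without that array. Of 18 further smooth muscle genes, 0 passed after sound and 1 higher without that array, and in naive rats 3 were higher in WAR N and 1 lower, or 7 higher and 2 lower without it. The actin regulator Cald1 had a log2 fold change of 0.55 (adjusted p = 0.00038), the myosin light chain Myl9 0.57 (adjusted p = 0.00815), the calcium pump inhibitor Pln 0.42 (adjusted p = 0.0325) and the calcium-storing protein Casq2 -0.48 (adjusted p = 0.0119). Of 28 further meningeal fibroblast genes, 0 passed after sound, or 1 higher and 1 lower without that array, and in naive rats 5 were higher and 4 lower in WAR N, or 8 and 5 without it. The matrix gene Fbln1 was at -0.70 (adjusted p = 0.000452), the proteoglycan Aspn at 0.97 (adjusted p = 0.000571), the chemokine Cxcl12 at 0.95 (adjusted p = 0.00547) and the PDGF receptor Pdgfra at -0.63 (adjusted p = 0.00754) (limma over all arrays in each case).

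Of 14 basement membrane genes, 0 passed after sound with or without Wistar N replicate 1, and in naive WAR rats 3 were higher and 2 lower, or 6 and 2 without it. Among them were the laminin chain Lama3 at 0.48 (adjusted p = 0.00276) and the type IV collagen chain Col4a3 at 0.38 (adjusted p = 0.00678). The integrin chains Itga1 and Itga6 were at 0.59 (adjusted p = 0.0076) and -0.44 (adjusted p = 0.00929). Of 16 collagen maturation genes, 0 passed after sound with or without that array, and in naive rats 1 was higher and 1 lower, or 2 and 3 without it. The collagen chaperone Serpinh1 was at -0.86 (adjusted p = 0.0107) and the cross-linking enzyme Loxl2 at 0.33 (adjusted p = 0.0446). Of 25 genes of mural to endothelial signalling, Tek, the angiopoietin receptor of endothelium, was the only one to pass in either comparison with all arrays, at 1.09 (adjusted p = 0.0212) after sound and 0.79 (adjusted p = 0.00447) in naive rats. Without Wistar N replicate 1, 1 passed higher and 1 lower after sound, and 9 higher and 2 lower in naive rats. Of 11 further insulin-like growth factor genes, 0 passed after sound with or without that array, and in naive rats the binding protein Igfbp5 was at -1.14 (adjusted p = 0.000545) and the receptor Igf2r at -0.54 (adjusted p = 0.00494), which makes 2 lower, or 2 higher and 2 lower without it. Of 12 retinoic acid genes, 0 passed after sound, or 1 lower without that array, and in naive rats 1 was higher and 2 lower, or 4 and 2 without it. The degrading enzyme Cyp26b1 was at -0.82 (adjusted p = 0.00219), the synthesizing enzyme Aldh1a1 at -1.45 (adjusted p = 0.00523) and the binding protein Crabp1 at 0.84 (adjusted p = 0.0215) (limma over all arrays in each case).

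**Figure D4:**
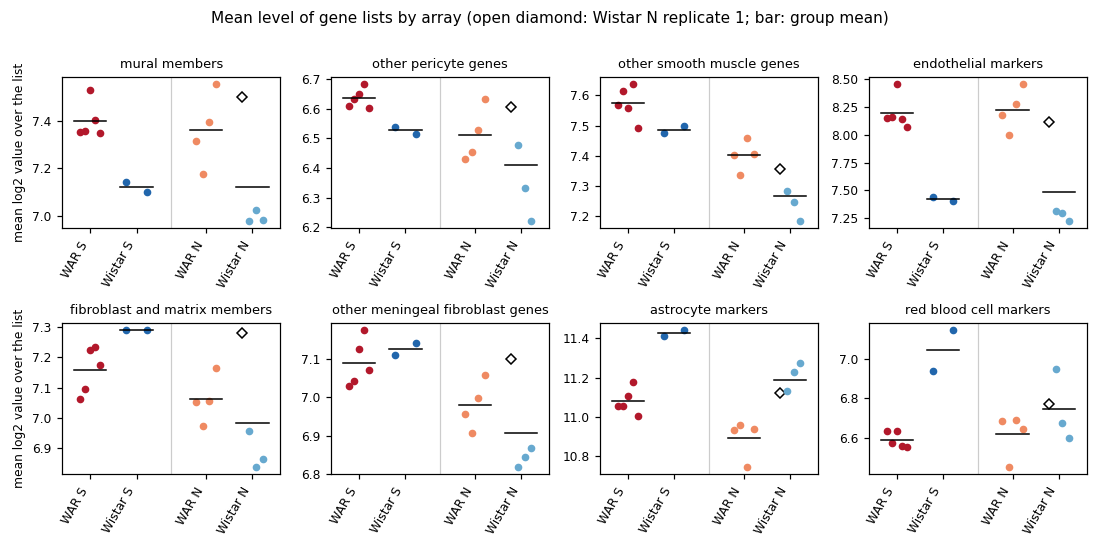
Mean log2 value of each gene list on each array, a panel a list, with WAR S, Wistar S, WAR N and Wistar N from left to right, the group mean as a bar and Wistar N replicate 1 as an open diamond. A line divides stimulated from naive arrays, whose levels are not comparable, the axes differ between panels, and in the endothelial panel the WAR S arrays at 8.07 to 8.45 lie above the Wistar S arrays at 7.41 to 7.44.

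Markers of other cell types were read as well, here and in the next paragraph. Their naive counts stand against 11.6% of all genes higher and 9.38% lower, or 22.6% and 18.5% without Wistar N replicate 1. Their counts after sound stand against 0.214% higher and 0.2% lower, or 1.1% and 0.703% with that array out of the shared spread. Of 20 endothelial markers, 4 passed higher in WAR S (Abcb1a, a gene of the study's own WAR results, among them) and 11 in WAR N. Without Wistar N replicate 1, 10 and 17 of these markers passed higher, and 0 passed lower in either case. Their mean log2 value lay at 8.07 to 8.45 on WAR S and 7.41 to 7.44 on Wistar S, and at 8.00 to 8.45 on WAR N and 7.22 to 8.11 on Wistar N, where replicate 1 was the highest. Over the 15 mural genes the same mean lay at 7.35 to 7.53 on WAR S and 7.10 to 7.14 on Wistar S, and at 7.18 to 7.56 on WAR N and 6.98 to 7.50 on Wistar N. Of 14 microglia and macrophage markers, 2 passed higher in WAR S and 5 in WAR N with 0 lower, or 3 higher in WAR S, and 7 higher and 2 lower in WAR N, without that array. Their means were 7.86 to 8.12 on WAR S, 7.59 to 7.70 on Wistar S, 7.78 to 7.86 on WAR N and 7.38 to 7.56 on Wistar N.

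Of 13 astrocyte markers, 0 passed after sound and 5 passed lower in WAR N, where 4 of the 13 had a log2 fold change above 0. Without Wistar N replicate 1, 1 passed lower after sound, and 1 higher and 6 lower in WAR N. Their mean lay at 11.00 to 11.18 on WAR S, 11.41 to 11.44 on Wistar S, 10.74 to 10.96 on WAR N and 11.12 to 11.27 on Wistar N. Of 5 red blood cell markers, Hbb, a globin chain, was the only one past the test and passed lower in both comparisons, or 2 lower after sound, and 1 higher and 1 lower in naive rats, without that array. Their mean lay at 6.55 to 6.64 on WAR S, 6.94 to 7.15 on Wistar S, 6.45 to 6.69 on WAR N and 6.60 to 6.95 on Wistar N. Choroid plexus markers, whose stroma also holds fibroblasts, passed in 0 of 9 in either comparison, or 2 lower after sound and 1 higher in naive rats without that array, with means of 6.01 to 6.26 on WAR S, 6.35 to 6.37 on Wistar S, 5.97 to 6.08 on WAR N and 5.93 to 6.18 on Wistar N. The part of these cell types in the fibroblast differences was not tested.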

How the data were processed

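The authors hybridized IC RNA to Affymetrix rat gene arrays and deposited log2 values per probe set, made with RMA, for which no version was found. The deposited table held 15 arrays in 4 groups and 29214 probe sets. Of these, 15310 had 1 gene symbol, 323 had several and 13581 had none in the platform annotation, and 14506 genes remained with the brightest probe set each. No column of samples was left unused.

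limma 3.58.1 in R 4.3.3 fitted a mean per group over all 15 arrays (lmFit, eBayes) with Benjamini-Hochberg adjustment over all 14506 genes at 0.05, in place of the SAM of the methods. Exact permutation tests, 2-sided, used the arrays of the compared groups, with a smallest p of 0.0476 for 5 against 2 arrays and 0.0286 for 4 against 4. On simulated data, 100 genes were changed by 1 on the log2 scale. Of these, 92 were recovered in WAR S over Wistar S and 91 in WAR N over Wistar N. All 100 genes changed by 2 were recovered, while 19 and 15 unchanged genes of the 14506 were also called. Recovery of such changes on the deposited arrays, with their shared values and Wistar N replicate 1, was not tested. Among the listed genes after sound, Rgs5 at 1.20, Fn1 at 1.20, Vtn at 1.04 and Igfbp2 at -1.01 did not pass. Slc47a1 at -0.68 did.

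Alternatives were: only the compared groups, label set as a block or alone, replicate block, the dimmest 25% of genes left out, all probe sets, the second brightest probe set, trend and robust variances, array weights, cyclic loess, unlogged means, a fold of 2 with unadjusted p of 0.05, and each array left out. Replicate numbers did not pair the arrays. Every measured gene of the list is named, and up to 4 called genes of each further list, smallest p first. The genes and lists were chosen with earlier results of these data known. Promoters are RefSeq sequences of GRCr8, and no genome build is given for the arrays in the sources used here.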

Additional observations from a re-analysis of the deposited data

Results flagged for a closer look

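A value was singled out when it was the highest or lowest of its group and stood off from the rest by more than Dixon's critical value at 95%. This held for 18 of 102 combinations of gene and group tested. Chance alone gives such a value in about 1 of 20 groups, and why any of them stood off was not tested.

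Wistar N replicate 1 gave 6 of them, all the highest of that group: Rgs5 at 11.00, Anpep at 6.11, Acta2 at 9.15, Dcn at 8.65, Slc6a13 at 7.99 and Bgn at 8.09. The other Wistar N value was Col3a1 at 6.72 on replicate 2. WAR S arrays gave 9. Replicate 3 was highest for Abcc9 at 7.72, Anpep at 6.08, Acta2 at 9.18 and Mylk at 7.40. Replicate 1 was lowest for Col1a1 at 7.70 and highest for Lum at 4.79. Mcam was lowest at 8.06 on replicate 5, Slc6a13 highest at 7.42 on replicate 4 and Col4a1 highest at 6.89 on replicate 2. For Abcc9, Acta2, Mylk, Col1a1, Lum and Col4a1 several of the remaining WAR S arrays shared 1 value, which leaves little spread for a value to stand off from. Mcam and Slc6a13 also had a value shared between WAR S arrays. WAR N arrays gave 2, Pdgfrb lowest at 7.66 on replicate 2 and Bgn highest at 7.84 on replicate 4.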

How the results depend on the processing

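Counts of mural genes past the test in WAR S over Wistar S were 0 as reported, 3 with a model of the compared groups alone, 4 with array weights, 2 at a fold of 2 with an unadjusted p of 0.05, and 0 to 3 with an array left out, the 3 without Wistar N replicate 1. In WAR N over Wistar N they were 2 as reported, 1 with only the compared groups, 0 in label set 1, 6 in label set 2, 1 with the dimmest 25% of genes left out, 1 with all probe sets, 4 with array weights, 1 with cyclic loess, 1 at a fold of 2, and 1 to 7 with an array left out, the 7 without Wistar N replicate 1 and 1 without WAR N replicate 1 or 3 or Wistar N replicate 2, 3 or 4. The mural median of 0.19 in naive rats became -0.056 in label set 1. For fibroblast and matrix genes after sound, 1 passed as reported, 0 in label set 1, 0 with the dimmest 25% left out (which removes Slc47a1), 8 with array weights, 2 at a fold of 2, and 0 to 3 with an array left out, 0 without Wistar S replicate 2 and 3 without Wistar N replicate 1. In naive rats 5 passed as reported, 1 with only the compared groups, 0 in label set 1, 2 at a fold of 2, and 2 to 6 with an array left out, 6 without Wistar N replicate 1, 2 without WAR N replicate 1 or Wistar N replicate 2 or 3, and 3 without WAR N replicate 2. The strain effect after sound minus the naive one passed in 0 mural and 0 fibroblast and matrix genes as reported, in 1 and 5 with array weights, in 0 and 1 at a fold of 2, and in 0 to 1 and 0 to 4 with an array left out, the highest without Wistar N replicate 1. Over all genes, WAR S over Wistar S gave 60 calls as reported, 274 with only the compared groups, 14 in label set 1, 1433 with array weights, 261 without Wistar N replicate 1, 38 without WAR S replicate 1, and 13 and 7 without Wistar S replicate 1 or 2. WAR N over Wistar N gave 3037, against 879, 217, 4667 and 5968 in the same 4 settings, 5355 of 29214 with all probe sets and 1987 without Wistar N replicate 3. The difference between the strain effects gave 15, against 3353 with array weights, 42 with cyclic loess, 9 with trend and robust variances, 0 in label set 1, and 0 to 2956 with an array left out, the most without Wistar N replicate 1. With a replicate block the counts were 0 mural and 0 fibroblast and matrix genes after sound, 1 and 3 in naive rats, and over all genes 16 after sound, 2490 in naive rats and 0 for the difference. Same-numbered arrays correlated at -0.31 to 0.06 in their deviations from the group means, so the numbers did not pair them. The cause of these shifts was not tested, and no gene of the list past the test with all arrays changed sign under any alternative. Abcc9, Acta2, Anpep, Des, Fn1, Kcnj8 and Vtn, which passed in naive rats under some alternatives, had naive log2 fold changes below 0 in label set 1. Of the changes in single genes, 45 lost a call and 48 gained one. With 2 Wistar S arrays, and values shared between stimulated arrays, differences after sound are the less precise.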
